A study of Xenopus tropicalis with 4 samples.

Results

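The genes examined here build ribosomes. They encode RNA polymerases I and III, the factors TFIIIA and TFIIIC, and the proteins that modify, cut and assemble ribosomal RNA. Members were taken by symbol from the protein-coding genes of the xenTr10 annotation, with no measured value in the rule, and there were 72 of 21749 genes on the 10 chromosomes. In a cell, RNA polymerase I copies the long ribosomal RNA precursor in the nucleolus, and RNA polymerase III makes 5S RNA and transfer RNA. Small nucleolar particles (snoRNPs) then modify the precursor, and separate sets of proteins shape the small and the large subunit. A frog egg is stocked with ribosomes, and the early embryo uses that store before it makes its own in quantity. Symbols that matched the rule include nol4 and nol4l, which are not known as parts of ribosome assembly, so counts are also given without them.

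Chromatin immunoprecipitation followed by sequencing located E2F1 and OTX1 on DNA in blastulae of Xenopus tropicalis (stage 8, whole embryos). The series asks how these maternal factors act on the first transcription of the embryo's own genes. The E2F1 group (2 libraries) came from embryos injected with E2F1 mRNA together with an MO and was precipitated with an antibody to the HA tag, and the labels call its genotype E2F1 Rescue. The OTX1 group (2 libraries) came from embryos injected with OTX1 mRNA together with an MO and was precipitated with an antibody to the Myc tag, under the genotype OTX1 Rescue. MO is the usual short form of a morpholino, an oligonucleotide that blocks an mRNA, and its target is not spelled out in the labels. Both factors were therefore mapped as proteins made from injected mRNA, and how their amount compared with the embryo's own protein is not given. The antibody, the tag and the factor changed together between the groups, so they cannot be told apart. Whether a replicate was a new batch of embryos is not stated, and differences between replicates may be technical only.

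The 4 lists held 16770 to 29098 peaks, with a median of 15 to 16 fragments stacked at the summit. A reproducible region was a place where the peaks of both replicate lists shared at least 1 bp, which gave 13216 regions for E2F1 and 17768 for OTX1. A gene is said to carry a region at an end when the summit lay within 1 kb of either annotated end. The annotation table gives no strand, so the end with the promoter could not be named. The fold of a peak is the authors' value for how far its summit rose over the local background of that library, and it ranks peaks within a list only. Its percentile is the rank of that fold among all peaks of the list, averaged over both lists.

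E2F1 lay at the ends of most of these genes. Of the 72 members, 54 (75%) carried a reproducible E2F1 region at an end and 18 did not. Among all protein-coding genes the share was 34.9%, and among the 15592 with a symbol other than a locus number it was 45.3%. In the single lists 77.8% (replicate 1) and 79.2% (replicate 2) of the members had a peak at an end, against 37.4% and 41.5% of all genes. Of the members, 54 had it in both lists, 2 in replicate 1 alone, 3 in replicate 2 alone and 13 in neither.

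**Figure D1:**
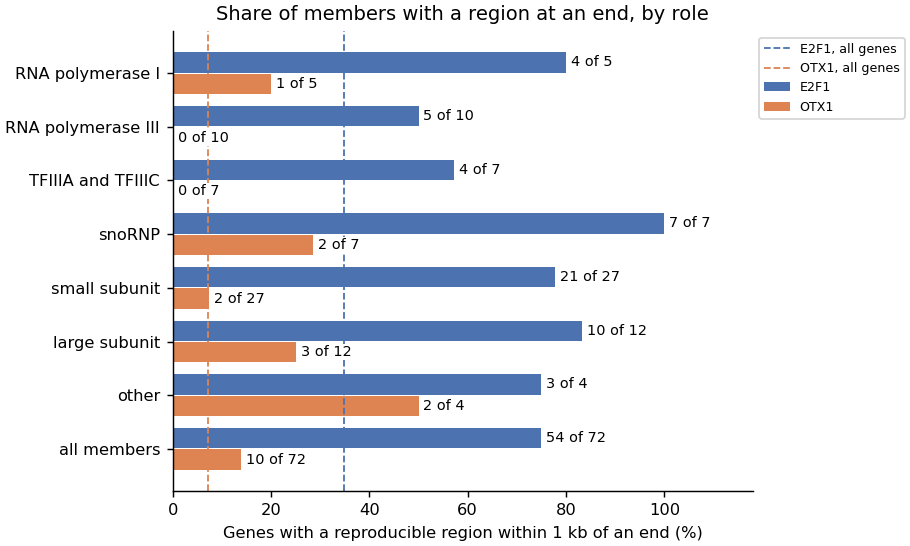
Share of genes (%, horizontal axis) with a reproducible E2F1 (blue) or OTX1 (orange) region within 1 kb of an end, by role, with counts beside the bars. Dashed lines mark the shares of all 21749 protein-coding genes, 34.9% for E2F1 and 7.18% for OTX1. E2F1 bars run from 5 of 10 RNA polymerase III members to 7 of 7 snoRNP members.

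The E2F1 summits sat close to the annotated ends. Their median distance from the end was 89 bp for the 54 members, against 130 bp for all 7596 genes that carried E2F1 at an end. Of the 54 members, 48 (88.9%) had the summit within 250 bp and 30 within 100 bp, whereas 75.8% of all such genes had it within 250 bp. In 52 of the 54 members only 1 region lay at an end, and nop14 and rrp8 had 2. Just inside the window stood ncl, the gene of nucleolin, at 558 bp. Just outside stood nol4 at 1250 bp and ltv1, a factor of late small subunit assembly, at 1575 bp, each with its summit inside the gene. The nol4 region itself reached past the annotated end, and nol4 had a peak at an end in replicate 2 alone. Widening the window to 5 kb added 5 members, for 59 (81.9%) against 43.6% of all genes.

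**Figure D2:**
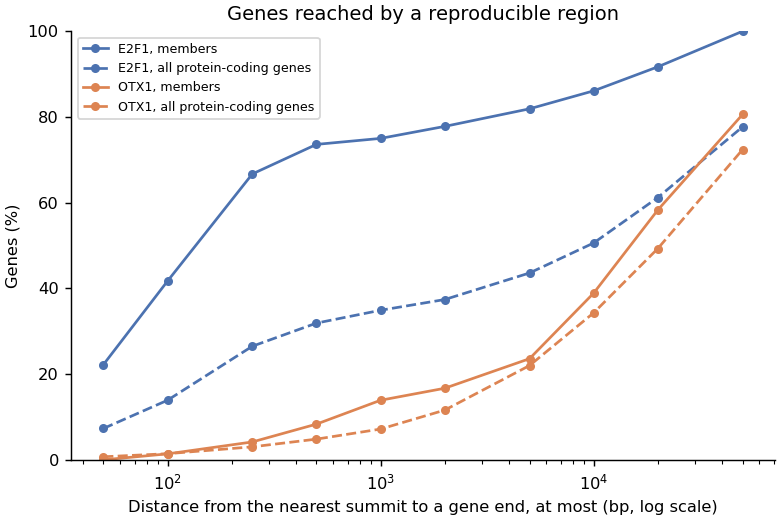
Cumulative share of genes (%) whose nearest summit lay at most the given distance (bp, log axis) from an annotated end, for members (solid) and all protein-coding genes (dashed). For E2F1 the members' line reaches 66.7% at 250 bp and 75% at 1 kb, while the OTX1 lines of members and all genes stand at 23.6% and 22.0% at 5 kb.

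Many members share an end with a neighbour. A second gene's end lay within 1 kb for 27 of 72 members (37.5%), against 19.1% of all genes. Genes with such a neighbour carried E2F1 more often in general, counted at either end of the gene (52.7% against 30.7% of the others). Members stood above all genes on both sides of that division. E2F1 was at 24 of the 27 members with a neighbouring end (88.9%) and at 30 of the 45 without (66.7%). In 21 of the 54 members (38.9%) the E2F1 summit also lay within 1 kb of another gene, against 24.0% of all genes with E2F1 at an end. At such a place the region cannot be assigned to either gene. The pairs include polr1a with mrpl35, polr1b with nanp, polr1c with yipf3, gtf3c4 with ddx31, bop1 with hsf1 and rrp1b with hsf2bp. Ddx31 encodes a helicase of large subunit assembly, so gtf3c4 and ddx31 are a pair from the same pathway.

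Of the members with polr1 symbols, which encode subunits of RNA polymerase I, 4 of 5 carried E2F1, against 34.9% of all genes. At all 4 the summit also lay within 1 kb of another gene. None of these regions can therefore be assigned to the polymerase gene alone. The neighbours were mrpl35 at polr1a, nanp at polr1b, yipf3 at polr1c and zbtb5 at polr1e. The subunit genes znrd1 and twistnb, with E2F1 at an end, and cd3eap, without, are counted with the other pathway genes. Polr1c, which encodes a subunit shared by RNA polymerases I and III, had the highest region of this class, with folds of 14.0 and 14.1 in replicates 1 and 2 and 34 and 35 fragments at the summit (chromosome 5, 2588036 to 2588809). Polr1b, the second largest subunit, followed with folds of 10.9 and 8.49. Polr1e had 7.75 and 7.61, and polr1a, the largest subunit, had the lowest folds of the class at 6.57 and 6.56. The replicates differed little except at polr1b. Polr1d.2, which encodes the partner of polr1c in both polymerases, had its nearest reproducible region 4856 bp beyond the gene.

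Of the 10 members with polr3 symbols, which encode subunits of RNA polymerase III, 5 carried E2F1. The share of all genes was 34.9%, and of those with a symbol other than a locus number 45.3%. The class leaves out crcp, a subunit gene counted with the other pathway genes, which carried E2F1 with folds of 7.56 and 8.15. It also leaves out the shared subunit genes polr1c, with E2F1 at an end, and polr1d.2, without, which are counted above. Polr3c led with folds of 7.38 and 9.63 (chromosome 8, 141779907 to 141780679), next to rnf115. Polr3f had 4.61 and 7.03, and polr3k 4.70 and 5.12. Polr3d had the lowest mean percentile, with 5.13 and 3.50 on 15 and 11 fragments. Polr3d and polr3k were both lost when a −log10 q of 5 or more was required. The large subunits were among those without a region at an end. For polr3a, the largest subunit, the nearest region lay 3148 bp outside the gene. Polr3b, the second largest, held 3 regions inside its 73369 bp, the nearest 5126 bp from an end with folds of 9.80 and 8.28. Polr3g and polr3gl encode alternative forms of a subunit, of which the first is the form of embryonic stem cells in mammals. Their nearest regions lay 5034 bp outside polr3g and 3684 bp inside polr3gl. Polr3e had a peak at an end in replicate 1 alone. Whether 5 of 10 differs from the share in the other classes was not tested.

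TFIIIA and TFIIIC are the factors that recognise the internal promoters of RNA polymerase III genes, and 4 of their 7 genes (57.1%) carried E2F1. The share was 34.9% of all genes and 45.3% of those with a symbol other than a locus number, and no difference was tested. Gtf3a encodes TFIIIA, the zinc finger protein of Xenopus oocytes that binds both the 5S RNA gene and 5S RNA. It had the lowest mean percentile of this class, with folds of 5.06 and 5.86 and its summit 68 bp from the end. Among the TFIIIC subunits, gtf3c5 had 7.35 and 11.6 (chromosome 8, 11353727 to 11354176), gtf3c4 6.80 and 8.38, and gtf3c6 6.09 and 5.75. The replicates were farthest apart at gtf3c5. Gtf3c1, gtf3c2 and gtf3c3 had no peak at an end in either list, and the summits nearest to an end lay 21956, 36218 and 30708 bp from it, outside the genes. Gtf3c1 also held 1 region inside the gene. The annotated gtf3c3 gene is 2852 bp long, against a median of 13694 bp for the members.

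All 7 members of the snoRNP class carried E2F1, against 34.9% of all genes. Of the 7, 2 were left when peaks in a high local background were removed (over 3 times the lowest of the list). That setting left 24.9% of all genes. Fbl, nop56, nop58, nhp2 and dkc1 were lost, which includes every box C/D gene among the members. These proteins form the box C/D particles, which methylate ribosomal RNA, and the box H/ACA particles, which convert uridine to pseudouridine. For box C/D, fbl (fibrillarin, the methyltransferase) had folds of 14.8 and 12.6 with 86 and 96 fragments at the summit (chromosome 7, 124431353 to 124432109). Its partners nop58 and nop56 had 11.1 and 13.4, and 11 and 10.8. All 3 box C/D members stood above the 95th percentile in the mean of both lists. The box H/ACA members lay lower than these 3. Snu13, a further box C/D protein gene, is counted with the other pathway genes. It carried E2F1 with folds of 8.78 and 8.10, at a mean percentile of 86.4, below nhp2 at 91.3. Snu13 kept its region when peaks in a high local background were removed. Nhp2 had 8.44 and 11.1 and gar1 had 7.09 and 7.38. Dkc1, the pseudouridine synthase dyskerin, had 5.40 and 6.67 with its summit 2 bp from the end, and nop10, the lowest of the class by mean percentile, had 5.75 and 5.66. In each replicate every box C/D member was above gar1, dkc1 and nop10, and nhp2 reached nop56 in replicate 2 only.

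Small subunit factors made up the largest class, and 21 of 27 (77.8%) carried E2F1, against 34.9% of all genes. The highest by mean percentile were imp4, a protein of the U3 particle that directs the first cuts of the precursor, with 11.1 and 15 (chromosome 8, 597815 to 598365), and tsr3, which modifies 18S RNA, with 12.7 and 11.9. Some of the utp genes, named after the U3 particle, came next. Their folds were 9.87 and 12.0 for utp15, 9.88 and 11 for utp6, 9.44 and 10.8 for utp23, 9.87 and 9.95 for utp25 and 9.09 and 10.1 for utp18. Utp3 and utp4 also carried E2F1 but lay lower, with 6.70 and 5.82, and 6.16 and 5.64. The summits at imp4, tsr3, utp15, utp25 and utp18 also lay within 1 kb of another gene. Those neighbours were ccdc115, gnptg, ankra2, tbcc and mbtd1, in that order. These regions cannot be assigned to either gene. The lowest by mean percentile was nop14, with 3.98 and 4.72 on 8 and 12 fragments. The class therefore spanned nearly the whole range of the members. Ltv1, nol7, rrp12, utp11, utp14a and utp20 had no reproducible region at an end. Of these, nol7 had a peak there in replicate 1 alone and utp11 in replicate 2 alone. Rrp12 held 1 region inside the gene, and the nearest region of utp20 lay 13359 bp from an end.

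Large subunit factors carried E2F1 at 10 of 12 genes (83.3%, against 34.9% of all genes) and held the highest region of all members. Rrp1b, a nucleolar assembly factor, had folds of 16.8 and 16.5 with 65 and 77 fragments (chromosome 2, 1560056 to 1560843). Bop1, a scaffold of the PeBoW complex that processes the large subunit precursor, had 12.3 and 13.4 (chromosome 6, 152324179 to 152324927). Rrp15 had 11.4 and 14.7, nop2, an RNA methyltransferase, had 12.0 and 13.2, rrp8, which methylates 28S RNA, had 12.3 and 10.2, and nol9, an RNA kinase, had 11.4 and 10.3. These 6 genes stood apart from the rest of the class in both replicates. Nop53, nop16 and noc2l followed with 7.71 and 7.03, 7.51 and 5.93, and 4.35 and 6.62, and noc3l had the lowest mean percentile with 5.11 and 4.62. Pes1, a partner of bop1 in the PeBoW complex, had no region at an end. It held 1 inside the gene, 9653 bp from the nearer end. Wdr12, another PeBoW subunit gene, is counted with the other pathway genes. It carried E2F1 with folds of 7.71 and 7.88, and lost it when peaks in a high local background were removed. Nol12 had a peak at an end in replicate 2 alone.

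The remaining members are nucleolar proteins outside these classes. Ncl had folds of 10.9 and 12.8 on 111 and 140 fragments, the tallest pileup among the members (chromosome 5, 100846765 to 100847809). Its local background was also the highest among the 54. Nol8 had 9.58 and 11.8, and nol4l 6.46 and 7.22. Without nol4 and nol4l, 53 of 70 members (75.7%) carried E2F1, against 34.9% of all genes.

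**Figure D3:**
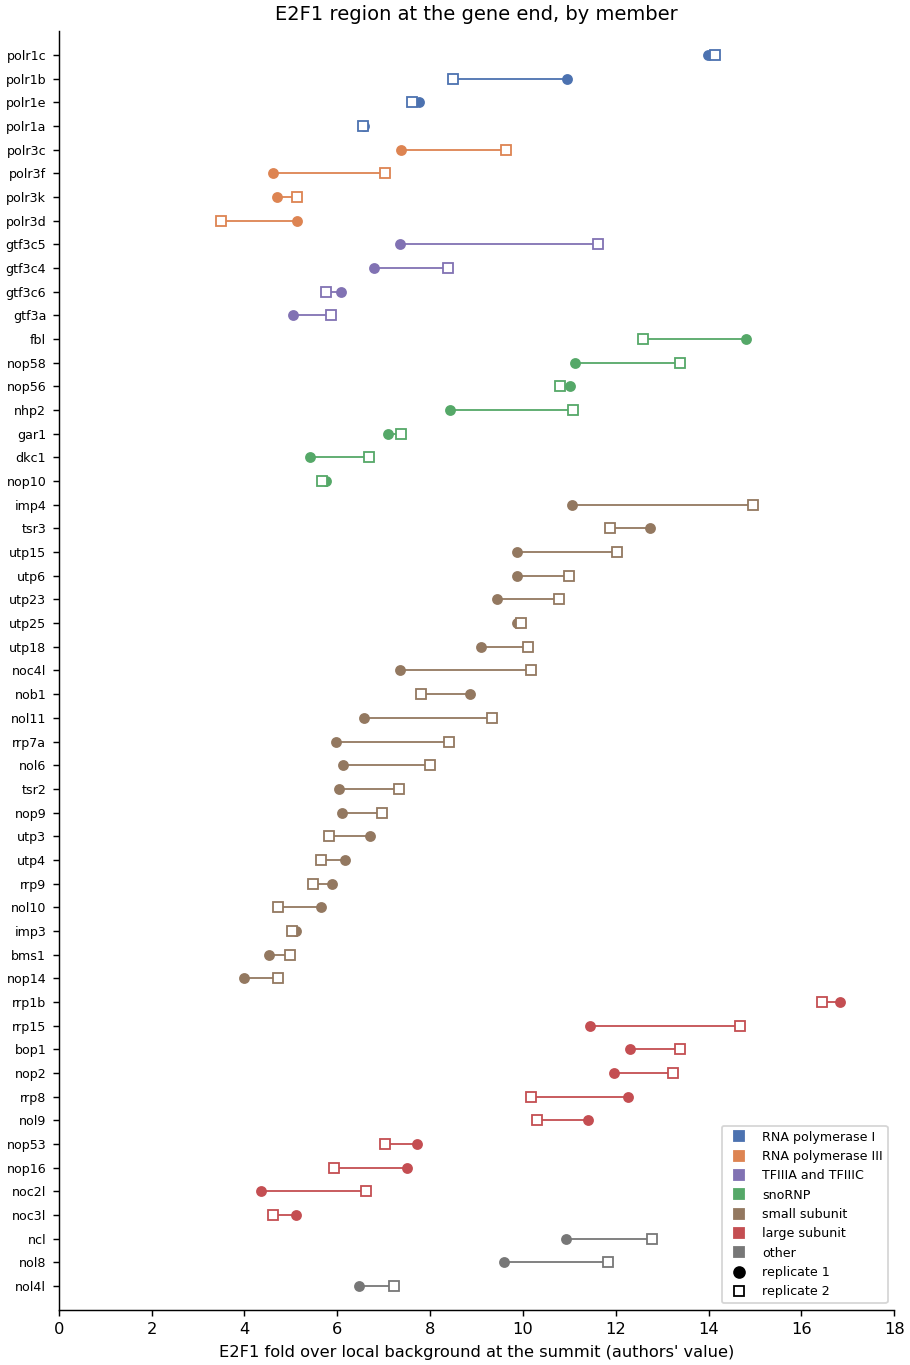
E2F1 fold over local background at the summit (horizontal axis, a ratio) for 53 of the 54 members with a region at an end, in replicate 1 (filled circles) and replicate 2 (open squares), coloured by role. The box C/D genes fbl, nop58 and nop56 head the snoRNP class, and rrp1b, with 16.8 and 16.5, is the highest member.

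Across the 54 member regions the fold ranged from 3.98 to 16.8 in replicate 1 (median 7.35) and from 3.50 to 16.5 in replicate 2 (median 8.19). All 6700 regions nearest to a gene with E2F1 at an end had medians of 6.20 and 6.75. Of the member regions, 30 (55.6%) were at or above the 75th percentile of their lists, against 39.4% of those 6700. These heights describe genes that passed the call, and no test was made on them. The order of the members was similar in the replicates, with a Spearman correlation of 0.879 over the 54 regions, which share the 2 libraries and are not independent. In 33 of the 54 the fold was higher in replicate 2. The same held for 4347 of the 6700 regions, so it is not particular to the members.

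OTX1 was found at few of these genes. Of the 72 members, 10 (13.9%) carried a reproducible OTX1 region at an end, against 7.18% of all protein-coding genes and 8.43% of those with a symbol other than a locus number. Within 5 kb the members had 17 (23.6%) against 22.0% of all genes, which is near the background. Without nol4 and nol4l the count at an end was 8 of 70 (11.4%). With lists of equal size 3 members (4.17%) were left against 3.82% of all genes. Requiring a −log10 q of 5 or more left 4 (5.56%) against 4.39%. No member with a polr3 symbol, and none of the TFIIIA and TFIIIC class, carried OTX1 at an end. Outside the members, the RNA polymerase III subunit gene crcp did, with its OTX1 summit at 959 bp.

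The strongest OTX1 region was at rrp8, with folds of 8.5 and 11 in replicates 1 and 2 on 21 and 25 fragments (chromosome 2, 180656188 to 180656862), at an end shared with ilk. It was the only member that kept its OTX1 region under all 8 alternative settings. Utp23 had 7.23 and 6.95, nol4l 7.72 and 5.95, and bop1 5.02 and 6.80. The remaining regions were low or differed between replicates. Ltv1 had 4.0 and 7.26, nop56 6.56 and 4.67, rrp15 4.69 and 6.29 and nol4 4.18 and 5.06. Nhp2 had 5.10 and 3.61, and polr1e 4.34 and 3.81. The folds of OTX1 and E2F1 are not on a common scale, since background and calling threshold differ between the lists. OTX1 summits also lay farther from the ends than those of E2F1, at a median of 326.5 bp, close to the 315 bp of all genes with OTX1 at an end, with 4 of the 10 (rrp15, ltv1, utp23 and nol4) between 500 bp and 1 kb.

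**Figure D4:**
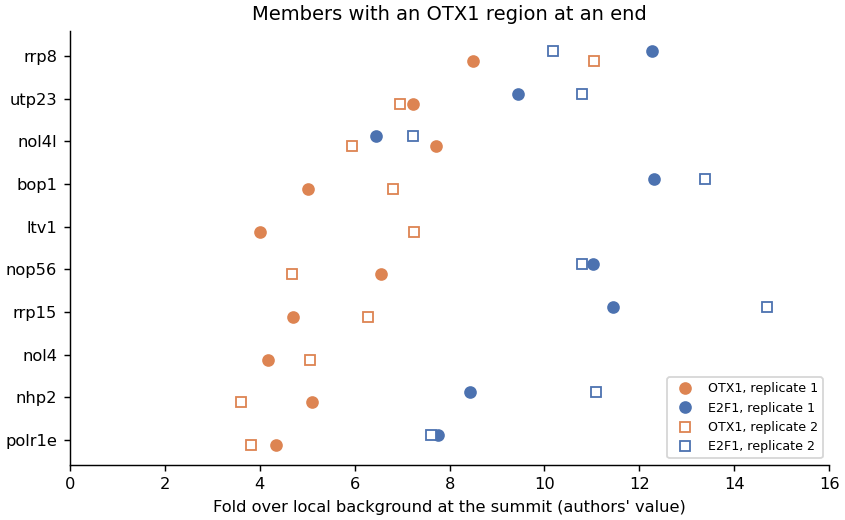
Fold over local background at the summit (horizontal axis, a ratio) for the 10 members with an OTX1 region at an end, for OTX1 (orange) and, where the gene also carried one at an end, E2F1 (blue), in replicate 1 (filled circles) and replicate 2 (open squares). Rrp8 has the highest OTX1 folds, 8.5 and 11, and ltv1 and nol4 have no E2F1 region at an end.

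Both factors had regions at the ends of a small number of members. Of the 10 genes with OTX1 at an end, 8 also carried E2F1 at an end, and ltv1 and nol4 did not. Of all 72 members 75% carried E2F1 at an end, so 8 of 10 is near that share. The matching share among all genes with OTX1 at an end was not counted. At 6 members (8.33%), against 3.82% of all genes, the regions of the factors overlapped by at least 1 bp. Without nol4 and nol4l it was 4 of 70 (5.71%). Their summits lay 46 bp apart at nop56, 67 bp at bop1, 93 bp at rrp8, 94 bp at nol4l, 206 bp at nhp2 and 589 bp at nol4. At polr1e, rrp15 and utp23 the regions were separate, and at utp23 they lay at opposite ends of the gene. The factors were precipitated from separate embryo samples, so an overlap of called regions does not show both proteins on the same DNA.

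Over the libraries, 78.5% ± 0.982 (SD, n = 2) of the members had an E2F1 peak at an end and 22.9% ± 0.982 (SD, n = 2) had an OTX1 peak. The difference of 55.6 percentage points was far larger than the spread between replicates, and the two-sided exact permutation test gave p = 0.333, the smallest that 2 against 2 libraries allow. All protein-coding genes differed in the same direction, with shares of 37.4% and 41.5% for E2F1 against 12.6% and 11.8% for OTX1. The E2F1 lists were called at a looser threshold (largest q of 0.0492 and 0.0470, against 0.00999 and 0.00977). With 1 threshold for all lists, a −log10 q of 5 or more, the difference was 58.3 points.

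The rest of the pathway resembled the members in its count. Of 135 other genes of ribosome production, 129 were matched in the annotation table, and 97 of them (75.2%) carried E2F1 at an end and 16 (12.4%) OTX1. The shares of all protein-coding genes were 34.9% and 7.18%. By group, E2F1 was at 7 of 10 RNA polymerase I factors, 10 of 11 RNA polymerase III factors, 16 of 24 exosome and nuclease genes, 26 of 33 small subunit and 38 of 51 large subunit genes. Exosc2, a cap subunit of the exosome, was the highest with folds of 19.1 and 19.8. Next came pelp1 (14.7 and 18.6), wdr43 of the small subunit processome (12.9 and 15.2), the nucleolar GTPase gene gnl3 (12.7 and 15.4) and ttf1, which ends RNA polymerase I transcription (13.1 and 14.2). Pwp2 (11.9 and 13.8), the exosome nuclease gene dis3 (13 and 11.4) and npm1, the abundant nucleolar chaperone (11.1 and 11.1), followed. Of these 8 genes, gnl3 alone kept its region when peaks in a high local background were removed. The count fell to 79 of 129 in that setting, which left 24.9% of all genes. Among the RNA polymerase I factors, taf1a, taf1b, taf1d, ubtf, ttf1 and the polymerase subunit genes znrd1 and twistnb carried E2F1. Rrn3, which makes RNA polymerase I ready for initiation, taf1c of the promoter factor SL1, and cd3eap, a polymerase I subunit in mammals, had no reproducible region at an end and none within 5 kb. Rrn3 and taf1c had a peak at an end in replicate 2 alone. Snapc1, exosc1, exosc3, exosc7 and exosc10 also lacked a reproducible region at an end, and of these exosc3 and exosc7 had a peak there in replicate 2 alone.

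Neighbouring parts of the gene expression machinery had like shares. E2F1 was at an end of 62 of 78 genes of cytosolic ribosomal proteins (79.5%) and of 40 of 51 genes of RNA polymerase II, its general factors and TBP-associated factors (78.4%). For OTX1 the counts were 10 (12.8%) and 7 (13.7%). The shares of all protein-coding genes were 34.9% for E2F1 and 7.18% for OTX1. The RNA polymerase II set was taken by symbol. It also holds taf1a, taf1b, taf1c and taf1d, which are counted above among the RNA polymerase I factors. All polr2 symbols were taken, so it may also hold subunits that RNA polymerases I and III share. The set is therefore not fully separate from this machinery. No difference between these sets and the members was tested.

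The number of members with E2F1 lay between 41 and 57 of 72 over 8 alternative settings. Of the 54 genes 33 carried it under every one of them, against 1 of 10 for OTX1. The single-replicate settings and the one that counts any base of the region lost no member for either factor. They mostly add calls, so only the other settings bear on this count. The matching share among all genes is not given. The lowest value came from removing peaks in a high local background, which left 56.9% of members against 24.9% of all genes. Fbl, nop56, nop58, nhp2, dkc1, ncl, nol8, nol9, rrp15, polr1a, polr1e, utp18 and utp25 lost their E2F1 regions there. The peaks taken out by that filter were tall, with a median of 35 and 41 fragments at the summit in the E2F1 lists against 14 and 15 for the others. The part of local background in these regions was not tested.

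**Figure D5:**
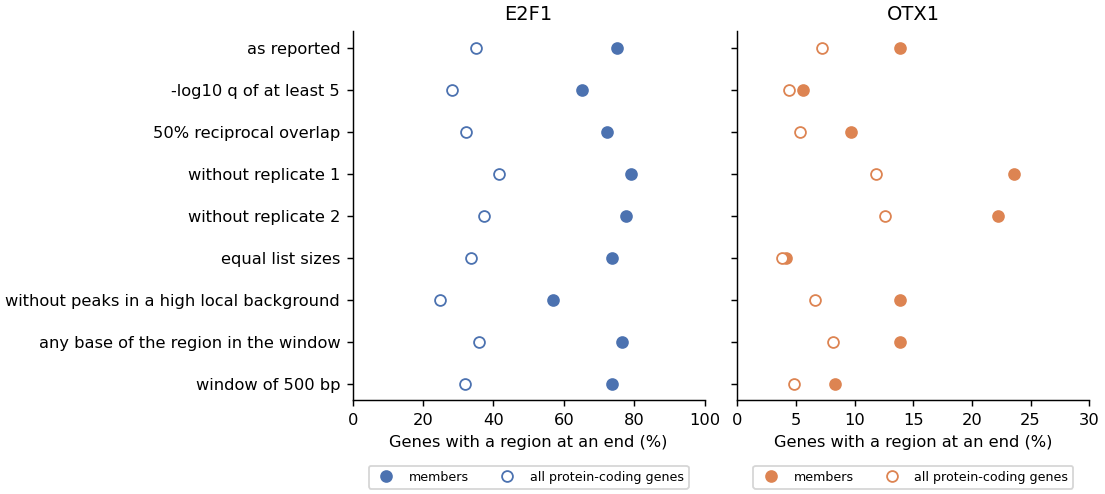
Share of genes (%) with a reproducible region at an end for members (filled) and all protein-coding genes (open), as reported and under 8 alternative settings, for E2F1 (left) and OTX1 (right, with a shorter axis). E2F1 shares of members stay between 56.9% and 79.2%, while OTX1 shares run from 4.17% with equal list sizes to 23.6% in replicate 2 alone.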

How the data were processed

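Peaks of 4 libraries from Xenopus tropicalis embryos were used as deposited, 1 list per library. Tools listed in the submitters' processing notes, with no role stated, are MACS2 2.2.7.1, deepTools, Bowtie2 2.4.5 and fastp. Whether an input control was used is not stated there. The build, xenTr10, comes from the OTX1 peak names. The deposited lists give a score (the whole part of 10 times the −log10 q in 100% of peaks), a fold ratio, and −log10 p and q values per peak, all the authors' own. Fragments at the summit were solved from fold and p, taking fold as (pileup + 1) / (background + 1) and p as a Poisson upper tail, and the solved values met the deposited −log10 p to within 4.56e-05. Read totals are not in the lists, and fragments may include amplification copies. The lowest background was 1.13 to 1.59 fragments.

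Genes came from the RefSeq table of UCB_Xtro_10.0, which has no strand or sequence. The planned promoter motifs and 5′ end alternative were therefore not run, and no sequence is shown. Overlaps and distances were computed with Python 3.11.15, pandas 2.3.3 and numpy 2.4.6 and tested on simulated data. Coordinates are 1-based. Counts of members are descriptions beside the share of all genes, and the factors were compared over libraries by an exact permutation test.

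Members and lists were chosen with earlier results of these data known. Genes were named by a rule: per role the 2 highest and the lowest E2F1 percentile, every member without E2F1 or with OTX1 at an end, those 0.5 to 2 kb from an end, and of the other pathway genes the 8 highest and 8 without a region. One member that the rule names is not reported here by itself and is counted in the totals. Further members were added for context after their values were seen.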

Additional observations from a re-analysis of the deposited data

How the results depend on the processing

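The count of members with E2F1 at an end (54) and within 5 kb (59), and that of the other pathway genes (97), stayed within 1.5 times under every alternative run. OTX1 counts did not. At an end, 10 members became 4 at a −log10 q of at least 5, 3 with equal list sizes and 6 with a window of 500 bp, and 16 to 17 in a single replicate. Within 5 kb, 17 became 11 at that q, 10 with equal list sizes and 27 to 30 in a single replicate. Overlapping regions at an end (6) became 3 at that q, 2 with equal list sizes, 2 without peaks in a high local background, and 9 to 10 in a single replicate. Single lists need no agreement between replicates and stricter settings keep fewer peaks; other causes were not tested. Ncl and utp20 had OTX1 peaks at an end in both lists that did not overlap. With the replicate number as a block (replicate block), the difference between the factors was the same 55.6 points with p = 0.5, the smallest that 2 pairs allow in an exact sign-change test; the labels do not say that the numbers pair the samples. Leaving out each library in turn gave 54.9 to 56.3 points. The 5′ end and motif alternatives were not run. Summits of 8 to 15 fragments rest on few reads, and weak calls such as polr3d and nop14 are uncertain.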

Other observations

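The RNA genes that this machinery copies or serves were seldom near E2F1, beside the 34.9% of protein-coding genes with a region within 1 kb of an end. Of 2366 annotated tRNA genes, templates of RNA polymerase III, 93 (3.93%) had a reproducible E2F1 region within 1 kb and 36 (1.52%) an OTX1 region. Of 463 annotated rRNA genes 3 (0.648%) had E2F1 and 7 (1.51%) OTX1, in each case from 1 region. Of 342 snoRNA genes 21 (6.14%) had E2F1 and 1 (0.292%) OTX1. Many of these genes lie in repeated arrays, with 1242 of the tRNA genes on chromosome 3, and the sources used here do not state how reads from such arrays were mapped, so a low count does not show that the factors were absent. These counts were made after the data were examined.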
